A study of Mus musculus with 6 samples.

Results

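A group of 10 kinase genes whose transcripts were higher in every β-cateninΔ(ex3)/+ liver than in every wild-type (WT) liver are described here, next to the AKT kinase gene Akt2: Npr2, Zap70, Ern1, Coq8a, Mapk15, Camk1d, Map3k13, Sgk2, Mknk2 and Mast3. The 10 genes were selected on these measured values, by matching the gene names of the deposited table, so their own differences between the groups are a description and carry no test. They are 10 of 487 protein kinase genes found in the table and of 31950 genes in all. The study had asked what constitutive activation of β-catenin does in the mouse liver, and RNA-seq was made of 6 whole livers of C57BL/6 mice aged 8 weeks, 3 per genotype. WT livers carried no allele named in the labels. The β-cateninΔ(ex3)/+ livers had lost exon 3 of 1 copy of Ctnnb1 through Cre, which removes the phosphorylation sites that mark β-catenin for degradation. The study describes Cre from an injected adenovirus, which gives a mosaic deletion, and a tamoxifen-inducible Cre under the albumin promoter, which acts in hepatocytes. It uses the name β-cateninΔ(ex3)/+ for livers of the tamoxifen model, but its RNA-seq methods state neither the route nor what the WT mice received. Nothing in the labels says whether a liver was 1 animal or a pool, so the spread between livers of a group may be smaller than that between animals.

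β-Catenin is the transcriptional arm of the canonical Wnt pathway. In the normal liver it is active in the hepatocytes around the central vein, where it switches on glutamine synthetase and other pericentral genes. Protein kinases pass signals on by phosphorylating other proteins. The 10 genes come from 8 branches of the kinase family tree and do unrelated work, from a membrane receptor that makes cyclic GMP to a mitochondrial factor for coenzyme Q.

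Levels are given as FPKM, fragments scaled to transcript length and to the mapped fragments of the library, which can be compared between genes. FPKM summed over all genes was 445026 to 446738 in WT and 463382 to 472042 in β-cateninΔ(ex3)/+ livers. Differences between the groups also depended on further scaling of the libraries. Fold changes in FPKM are ratios of group means, and log2 fold changes are differences of group means of log2(FPKM + 1), which understate the change of weakly expressed genes. A gene is called higher or lower where limma gave a Benjamini-Hochberg adjusted p under 0.05 and an absolute log2 fold change of at least 1. By that rule 12.7% of 13243 genes tested were called, 8.17% higher and 4.52% lower. The middle gene of those tested had a log2 fold change of 0.14, and 64.4% of calls were higher in β-cateninΔ(ex3)/+ livers. With median-ratio scaling that share was 53.1%, and with quantile normalization 49.5%, and these scalings moved the middle gene by −0.14 and −0.16.

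Some facts of all 6 libraries bear on the comparison. The estimated depth was 24400000 to 24700000 fragments in WT and 17000000 to 19600000 fragments in β-cateninΔ(ex3)/+ livers, and 20328 to 21938 genes had a value above 0. Ctnnb1 had 25.9 to 28 FPKM in the WT and 25 to 25.4 in the β-cateninΔ(ex3)/+ livers, a gene-level value that cannot show the loss of an exon. The β-catenin targets Glul, which encodes glutamine synthetase, and Axin2, a feedback inhibitor of the pathway, stood at 102 to 105 against 619 to 633 FPKM and at 0.641 to 1.43 against 5.89 to 7.03 FPKM. The female-specific transcript Xist was at 20.3 to 22.2 FPKM in WT livers and at most 0.0154 in β-cateninΔ(ex3)/+ livers. The Y-linked Eif2s3y was at most 0.0165 against 9.20 to 9.94 FPKM. Sex and genotype therefore cannot be told apart in any result here, for genes on the sex chromosomes or elsewhere. H19, Igf2 and Afp are genes of the fetal and newborn liver and were looked up after their values were seen. They were at 2320 to 2374, 803 to 847 and 601 to 612 FPKM in WT livers. In β-cateninΔ(ex3)/+ livers they were at no more than 0.0480, 0 and 2.81 FPKM, although the labels give 1 age for all mice. Any difference in liver maturity between the groups was not tested and cannot be told apart from genotype in any result here. Of 8 hepatocyte markers, 1 was called higher and 3 lower, where 8.17% of all genes tested were called higher and 4.52% lower. Their summed level was 83201 to 85799 FPKM in WT and 40556 to 40852 FPKM in β-cateninΔ(ex3)/+ livers. Summed markers of Kupffer cells and macrophages went from 220 to 228 up to 505 to 514 FPKM, and those of stellate cells and fibroblasts from 91.3 to 94.2 down to 27.0 to 30.4 FPKM. The sum for neutrophils and monocytes went from 256 to 273 down to 30.7 to 33.7 FPKM, but its genes were split. Of 5 tested, 2 were called lower and 3 were higher in every β-cateninΔ(ex3)/+ liver, with a median log2 fold change of 0.40. In whole liver, a change in the number of cells of a type and a change in RNA per cell cannot be told apart.

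**Figure D1:**
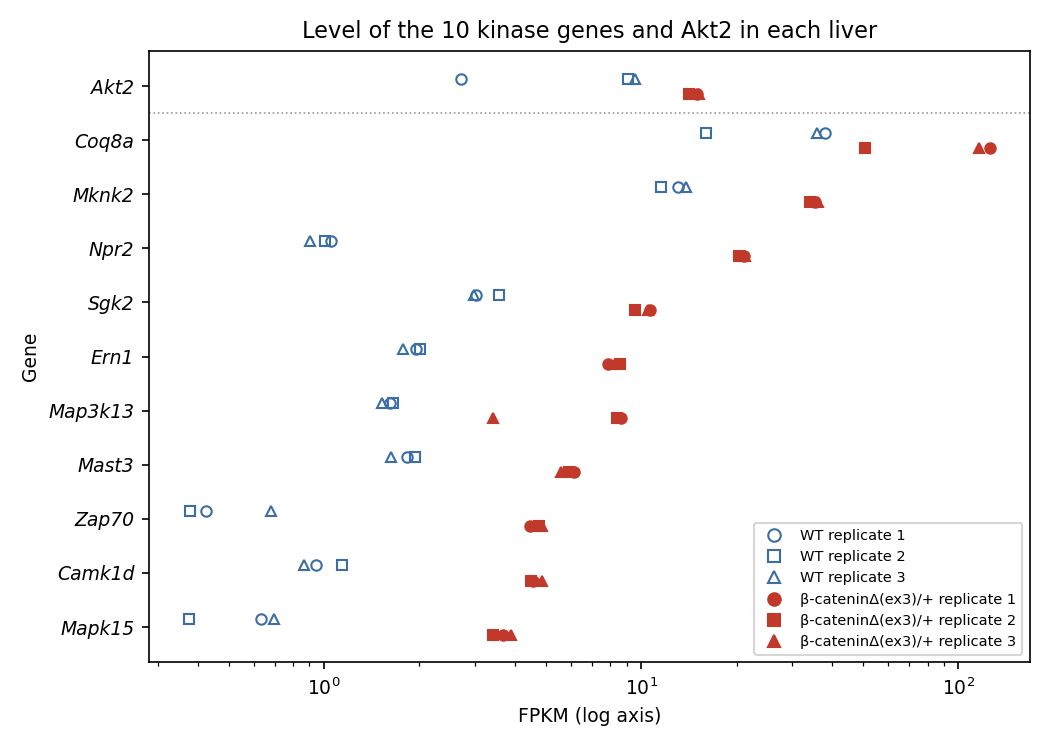
FPKM (log axis) of the 10 kinase genes and Akt2 in each of 3 WT livers (open blue symbols) and 3 β-cateninΔ(ex3)/+ livers (filled red symbols), with 1 symbol shape per replicate number. The groups are far apart for Npr2 (0.903 to 1.05 against 20.3 to 21.3 FPKM) and closest for Coq8a, whose replicate 2 is low in both groups.

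The start regions of the genes were set side by side because the 10 genes were high together. RefSeq promoter windows (GRCm38.p6) were found for 8 of the 10 genes, with 12 windows in all, as Zap70 has 3 and Camk1d and Coq8a 2 each. Printed are 3 windows with no exon of a coding gene inside, each 250 bases upstream of the RefSeq start, 5′ to 3′ on the transcribed strand, for the gene with the widest gap between the groups and for 2 with GC boxes. The RefSeq start of Npr2 and Mknk2 is that of the table, and that of Camk1d lies 247 bases upstream of it. Capitals mark the GC box GGGCGG or its complement CCGCCC.
Npr2, chr4:43631685-43631934, plus strand: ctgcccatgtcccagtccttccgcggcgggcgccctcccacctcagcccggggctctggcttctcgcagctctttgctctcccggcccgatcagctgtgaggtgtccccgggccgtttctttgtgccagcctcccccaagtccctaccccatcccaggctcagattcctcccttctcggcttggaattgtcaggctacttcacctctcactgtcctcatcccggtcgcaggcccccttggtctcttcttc
Camk1d, chr2:5714763-5715012, minus strand: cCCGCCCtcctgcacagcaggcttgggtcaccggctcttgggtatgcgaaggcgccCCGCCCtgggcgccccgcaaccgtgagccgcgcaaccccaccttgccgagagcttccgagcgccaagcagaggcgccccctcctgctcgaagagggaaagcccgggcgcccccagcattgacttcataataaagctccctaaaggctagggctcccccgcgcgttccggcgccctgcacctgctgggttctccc
Mknk2, chr10:80676294-80676543, minus strand: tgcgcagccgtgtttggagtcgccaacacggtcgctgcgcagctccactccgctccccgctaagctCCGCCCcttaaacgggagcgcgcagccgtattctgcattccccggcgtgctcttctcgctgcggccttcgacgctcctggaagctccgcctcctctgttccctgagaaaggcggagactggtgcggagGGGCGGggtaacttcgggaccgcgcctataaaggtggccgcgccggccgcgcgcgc
The Npr2 window holds no GC box and shares 167 bases with an exon of the antisense gene Gm12473. Those of Camk1d and Mknk2 hold 2 GC boxes each. Over all 12 windows, 6 held the GC box on either strand, in Camk1d, Coq8a, Ern1, Mast3 and Mknk2, against 32.7% of 32851 windows of all genes. CTTTGAT or CTTTGAA, 7-letter forms of the site bound by the TCF and LEF partners of β-catenin, stood on neither strand of any of the 12 windows, and in 7.48% of all windows. The E-box CACGTG was in 0 of the 12 and in 6.02% of all windows. These counts describe letters in short windows, and enhancers were not looked at.

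The 10 genes, selected on these same values, had some of the largest differences among the kinases, so their ranks describe the selection. Of 340 protein kinase genes tested, 150 (44.1%) were higher in every β-cateninΔ(ex3)/+ liver than in every WT liver, against 43% of all genes tested, and 85 (25.0%) were lower in every one. Of the 330 kinases besides the 10 genes, 140 were higher in every one. The rule by itself therefore admitted many kinases with small differences. Of the 330 other kinases, 12 were called higher and 9 lower. With the 10 genes included, 6.47% of the 340 kinases were called higher, against 8.17% of all genes tested. Over all genes tested, 4.52% were called lower. After either scaling, 17 kinases were called higher and 16 lower, against 22 and 9 without scaling, the 10 genes included. The log2 fold changes of the 10 genes ranged from 1.3 to 3.46 with a median of 1.54, where the median of the other kinases was 0.13, and they took ranks 1, 3 and 5 to 12 of 340. Rank 2 was Egfr, the receptor of epidermal growth factor (3.68 ± 0.17 against 24.8 ± 0.25 FPKM, mean ± SD, n = 3, limma adjusted p = 2.68e-07), and rank 4 was Plk1, a mitotic kinase (log2 fold change 1.68, limma adjusted p = 2.39e-05). The next kinases in rank were the necroptosis pseudokinase gene Mlkl at 1.29 and the NF-κB activating Ikbkb at 1.28 on the log2 scale. The summed level of the 10 genes was 54.3 FPKM in WT and 198 FPKM in β-cateninΔ(ex3)/+ livers, and Coq8a and Mknk2 made up most of it.

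**Figure D2:**
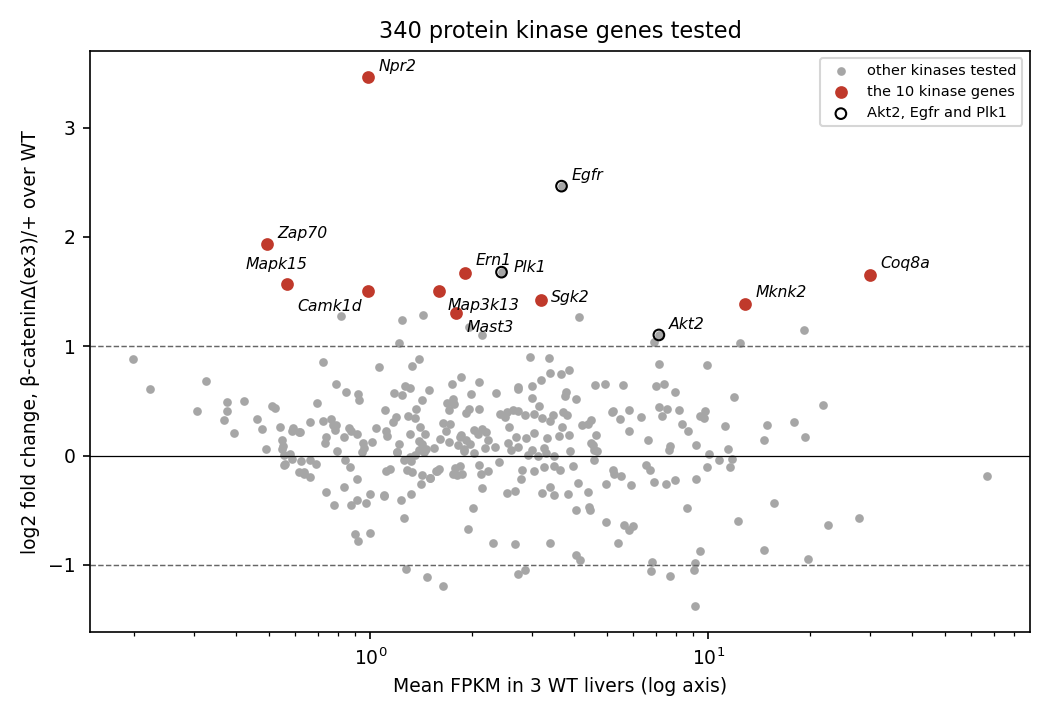
Log2 fold change (β-cateninΔ(ex3)/+ over WT) of 340 protein kinase genes against their mean FPKM in 3 WT livers (log axis), 1 point per gene, with dashed lines at the fold threshold of 1 and −1. The 10 selected genes (red) lie between 1.3 and 3.46, Egfr lies among them at 2.47, and most of the other kinases (grey) lie close to the 0 line.

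Of the 10 genes, Coq8a lay nearest the edge of the rule, its lowest β-cateninΔ(ex3)/+ value being 1.34 times its highest WT value. Another 72 tested kinases also met the rule with a smaller gap. Map3k13 followed at 2.07 and Mknk2 at 2.46, and Npr2 had the widest gap at 19.3. Just outside, among all kinases tested, lay Fes, Stk24 and Stk25, whose lowest β-cateninΔ(ex3)/+ value was 0.999, 0.988 and 0.979 times the highest WT value. These 3 kinases differed little in level, with log2 fold changes of 0.20, 0.06 and 0.05. Akt2, the insulin-responsive AKT isoform of liver, met the same rule. It had 2.69, 9.11 and 9.60 FPKM in WT and 15.0, 14.2 and 15.2 FPKM in β-cateninΔ(ex3)/+ livers. WT replicate 1 lay far below the others. With it the log2 fold change of Akt2 was 1.10 ± 0.41 (SE) and limma's adjusted p 0.0609, and its rank 19 of 340 kinases. Without WT replicate 1 the log2 fold change was 0.61 and likewise not called.

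Npr2 showed the largest difference of any kinase. It encodes guanylyl cyclase B, the membrane receptor of C-type natriuretic peptide, which makes cyclic GMP and carries a pseudokinase domain, and it lies at chr4:43631935-43651244 on the plus strand (GRCm38, as do all gene coordinates here). Npr2 had 1.05, 1.01 and 0.903 FPKM in WT livers and 21.1, 20.3 and 21.3 FPKM in β-cateninΔ(ex3)/+ livers, a 21.2-fold ratio of means and a log2 fold change of 3.46 ± 0.05 (SE). Every liver of a group lay close to the others, and Npr2 moved from rank 269 to rank 10 by level among the kinases. The antisense gene Gm12473, which overlaps its first exons, was listed at 0 in WT livers and at 1.72, 2.53 and 3.36 FPKM in β-cateninΔ(ex3)/+ livers. The library kit kept strand, but whether counting used it was not given in the sources used here.

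Of 9 other genes tested of the natriuretic peptide and cyclic GMP list, 1 was called higher and 2 lower, and the median log2 fold change was −0.68. Over all genes tested, 8.17% were called higher and 4.52% lower. Npr1, the sister receptor for atrial natriuretic peptide, had 5.73, 5.90 and 5.81 FPKM in WT and 3.24, 3.07 and 3.46 FPKM in β-cateninΔ(ex3)/+ livers, a log2 fold change of −0.68 ± 0.05 (limma adjusted p = 0.00013) that missed the fold threshold. Npr2 thus supplied 13.5 to 15.5% of the summed FPKM of both receptors in WT and 86.0 to 86.9% in β-cateninΔ(ex3)/+ livers. Mme, which encodes the peptide-degrading protease neprilysin, rose by 2.49 ± 0.07 on the log2 scale (limma adjusted p = 1.20e-06). Enzymes of cyclic nucleotide turnover fell, namely Pde2a, a phosphodiesterase, by 2.04 ± 0.07, and Gucy1a1, a subunit of soluble guanylyl cyclase, by 1.11 ± 0.07 on the log2 scale (limma adjusted p = 3.58e-06 and 3.96e-05). Nppc, the gene of the Npr2 ligand, was listed at 0 in all 6 livers, and the clearance receptor gene Npr3 at 0.108 to 0.519 FPKM was below the filter.

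Zap70 encodes the tyrosine kinase that binds the activated T cell receptor and is a defining gene of T and NK cells. It lies at chr1:36761798-36782818 on the plus strand. Its level was 0.426, 0.377 and 0.679 FPKM in WT and 4.46, 4.77 and 4.87 FPKM in β-cateninΔ(ex3)/+ livers, a 9.51-fold ratio. The WT livers varied more among themselves (coefficient of variation 32.8%) than the β-cateninΔ(ex3)/+ livers (4.57%), at a level where few fragments are counted. The log2 fold change was 1.94 ± 0.09 (SE).

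The T cell markers were mostly higher, and 2 were called, where 8.17% of all genes tested were called higher. Of 9 tested, 7 were higher in every β-cateninΔ(ex3)/+ liver than in every WT liver, against 43% of all genes, and 0 were lower in every one. Their median log2 fold change was 0.57, against 0.14 over all genes. Of 15 T cell markers, all were above 0 in some liver and 9 were tested, of which 2 were called higher and none lower. They were Cd8b1, the CD8 β chain, at 0.124 to 0.298 against 2.29 to 2.31 FPKM (log2 fold change 1.43 ± 0.07), and Trac, the T cell receptor α constant segment, at 0.388 to 1.17 against 2.78 to 3.95 FPKM (1.23 ± 0.20). Cd3g, which belongs to the receptor complex of every T cell, had a log2 fold change of −0.10 ± 0.10. The summed T cell markers went from 10.6 to 13.5 up to 23.4 to 25.7 FPKM, and the part of T cells in the Zap70 value was not tested. None of 5 NK cell markers was called, and their sums, 13.9 to 18.0 and 17.1 to 18.4 FPKM, overlapped. In the T cell receptor list, 0 of 16 genes were called in either direction, with a median log2 fold change of 0.22. The Zap70 partner Lat, an adaptor that Zap70 phosphorylates, had 0.427 to 0.570 against 1.17 to 1.44 FPKM (log2 fold change 0.63 ± 0.07, limma adjusted p = 0.00071), short of the fold threshold. Syk, the relative of Zap70 in B and myeloid cells, had a log2 fold change of −0.17 ± 0.07 (limma adjusted p = 0.088). All 4 B cell markers tested were called lower, and the sum of that list went from 26.2 to 27.1 down to 3.53 to 4.49 FPKM. The part of B cells in the values of Syk and Zap70 was not tested.

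Ern1 encodes IRE1α, the kinase and endoribonuclease of the endoplasmic reticulum membrane that senses unfolded proteins and splices Xbp1 mRNA, and lies at chr11:106394650-106487852 on the minus strand. Ern1 had 1.95, 2.00 and 1.78 FPKM in WT and 7.86, 8.58 and 8.27 FPKM in β-cateninΔ(ex3)/+ livers, a 4.31-fold ratio and a log2 fold change of 1.67 ± 0.06 (SE). The groups were far apart and both were tight. Of 31 other genes of the unfolded protein response that were tested, 10 were called higher and 1 lower, with a median log2 fold change of 0.80 against 0.14 over all genes. Over all genes tested, 8.17% were called higher and 4.52% lower. In all, 22 of the 31 were above WT in every β-cateninΔ(ex3)/+ liver, against 43% of all genes. Leaving out any single liver left 10 or 11 called higher, and quantile normalization left 8.

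The genes that rose were mainly chaperones and folding or degradation factors of the endoplasmic reticulum. Sdf2l1, a cofactor of the chaperone BiP, went from 8.08, 5.08 and 8.07 to 59.1, 54.8 and 60.6 FPKM (log2 fold change 2.90 ± 0.17, limma adjusted p = 2.98e-05). Hyou1, a large chaperone of the same compartment, went from 2.34, 2.64 and 2.50 to 12.5, 12.6 and 13 FPKM (1.97 ± 0.05, limma adjusted p = 1.20e-06). Hspa5, which encodes BiP itself, went from 45.1, 37.1 and 34.1 to 80.5, 196 and 196 FPKM (1.9 ± 0.36, limma adjusted p = 0.0054). β-CateninΔ(ex3)/+ replicate 1 was far below the other 2 for Hspa5 but still above every WT liver. Dnajb11 and Manf both rose by 1.42 on the log2 scale, and Syvn1, Pdia6, Dnajc3, Creld2 and Edem1 by 1.20 to 1.38. Xbp1, the substrate of IRE1α, went from 13.4, 12.6 and 14.9 to 25.9, 24.8 and 22.9 FPKM (0.80 ± 0.08, limma adjusted p = 0.00026), under the fold threshold, and gene-level values do not show splicing. The exception was Creb3l3, a liver factor of the same membrane that controls lipid genes, which fell by 1.39 ± 0.04 on the log2 scale (limma adjusted p = 2.42e-06). Trib3 and Chac1, targets of the ATF4 branch, had log2 fold changes of −0.80 and −0.82 and were not called. Eif2ak3, the kinase gene of that branch, stood at 0.21 ± 0.10. Ern2, the gut relative of Ern1, was listed at 0 in all 6 livers.

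**Figure D3:**
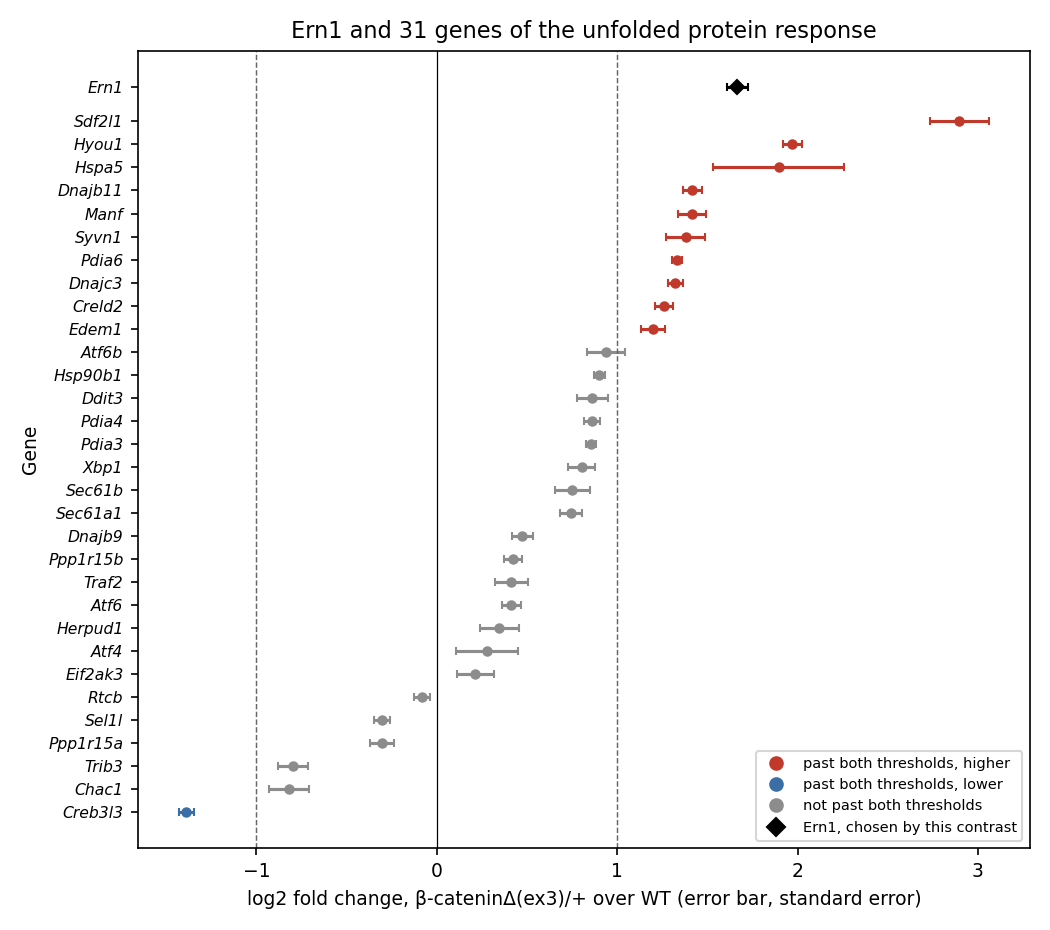
Log2 fold change (β-cateninΔ(ex3)/+ over WT) with its standard error for Ern1 (black diamond, chosen by this contrast) and 31 other tested genes of the unfolded protein response, with dashed lines at 1 and −1. The 10 genes in red were called higher, led by Sdf2l1 at 2.90, and Creb3l3 (blue) was called lower at −1.39, while 20 (grey) did not pass both thresholds.

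Coq8a was the most abundant of the 10 genes and the least even. It encodes an atypical kinase of the inner mitochondrial membrane needed to make coenzyme Q, the electron carrier of the respiratory chain, and lies at chr1:180165238-180199602 on the minus strand. Its levels were 38.0, 16.1 and 35.9 FPKM in WT and 126, 50.8 and 116 FPKM in β-cateninΔ(ex3)/+ livers. Replicate 2 stood low in both groups, at 0.435 and 0.421 of the mean of the other 2 livers, so the log2 fold change of 1.66 had a standard error of 0.46. The ratio between the groups was 3.30, 3.16 and 3.23 for livers of the same number, and 3.25 for the group means. The labels do not say that livers of the same number were paired. Without replicate 2 of both groups the log2 fold change was 1.68. Without WT replicate 2 alone, or without β-cateninΔ(ex3)/+ replicate 1 or 3, the log2 fold change was 1.27, 1.42 and 1.48. Of 6919 genes with a mean of at least 3 FPKM, 11 were, like Coq8a, under 0.5 of the other 2 livers in replicate 2 of both groups, and 11 and 6 in replicates 1 and 3. Counted in each group by itself, 128 genes were that low in WT and 106 in β-cateninΔ(ex3)/+ replicate 2. For replicate 1 these counts were 93 and 81, and for replicate 3 they were 89 and 77. Whether livers of the same number shared a step of handling was not tested.

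None of 12 other genes of coenzyme Q synthesis was called in either direction, and the median log2 fold change was 0.15, close to that of all genes. Coq9, a lipid-binding partner in the same complex, had 23.1 to 25.3 FPKM in WT and 22.6 to 24.6 FPKM in β-cateninΔ(ex3)/+ livers (log2 fold change −0.05 ± 0.05, limma adjusted p = 0.45). Coq8b, the closest relative of Coq8a, had 7.33, 5.88 and 7.27 FPKM in WT and 3.07, 3.01 and 2.86 FPKM in β-cateninΔ(ex3)/+ livers. The groups of Coq8b did not overlap, and its log2 fold change of −0.97 ± 0.09 (limma adjusted p = 0.00022) was just short of the fold threshold. It passed that threshold after either scaling, at −1.13 and −1.17. Coq8a made up 73.2 to 83.9% of the summed FPKM of both genes in WT and 94.4 to 97.6% in β-cateninΔ(ex3)/+ livers.

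Sgk2 was higher where its relative Sgk1 fell. SGK kinases are close to AKT and act downstream of PI3 kinase on ion channels and FOXO factors, and Sgk2 lies at chr2:162987330-163014127 on the plus strand. Sgk2 had 3.02, 3.57 and 2.98 FPKM in WT and 10.6, 9.55 and 10.5 FPKM in β-cateninΔ(ex3)/+ livers, 3.21-fold higher by the means, with a log2 fold change of 1.43 ± 0.08 (SE). Sgk1, the isoform induced by glucocorticoids, went from 8.82, 9.48 and 9.11 down to 3.02, 2.84 and 2.85 FPKM and fell by 1.38 ± 0.05 on the log2 scale (limma adjusted p = 4.82e-06). Sgk3 stood at 0.356 to 0.570 and 0.493 to 0.645 FPKM, and its groups overlapped. The sum of the 3 genes was 12.8 ± 0.53 FPKM in WT and 13.7 ± 0.73 FPKM in β-cateninΔ(ex3)/+ livers (SD, n = 3), so the level of the family differed little while the share of Sgk2 went from 23.5 to 26.6% up to 74.2 to 75.7%. Of 23 other SGK and AKT genes, regulators and substrates tested, 1 was called higher and 2 lower. Over all genes tested, 8.17% were called higher and 4.52% lower. The median log2 fold change of the 23 genes was 0.22, against 0.14 over all genes. Foxo3, a transcription factor that AKT and SGK keep out of the nucleus, rose by 1.09 ± 0.08 on the log2 scale (limma adjusted p = 0.00011), though not past the fold threshold after either scaling, at 0.96 and 0.95. Ndrg1, a substrate of SGK1, fell by 1.04 ± 0.06 (limma adjusted p = 3.27e-05). Pdpk1, the upstream kinase of SGK and AKT, had 1.37 to 1.84 and 1.53 to 1.73 FPKM, with overlapping groups.

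**Figure D4:**
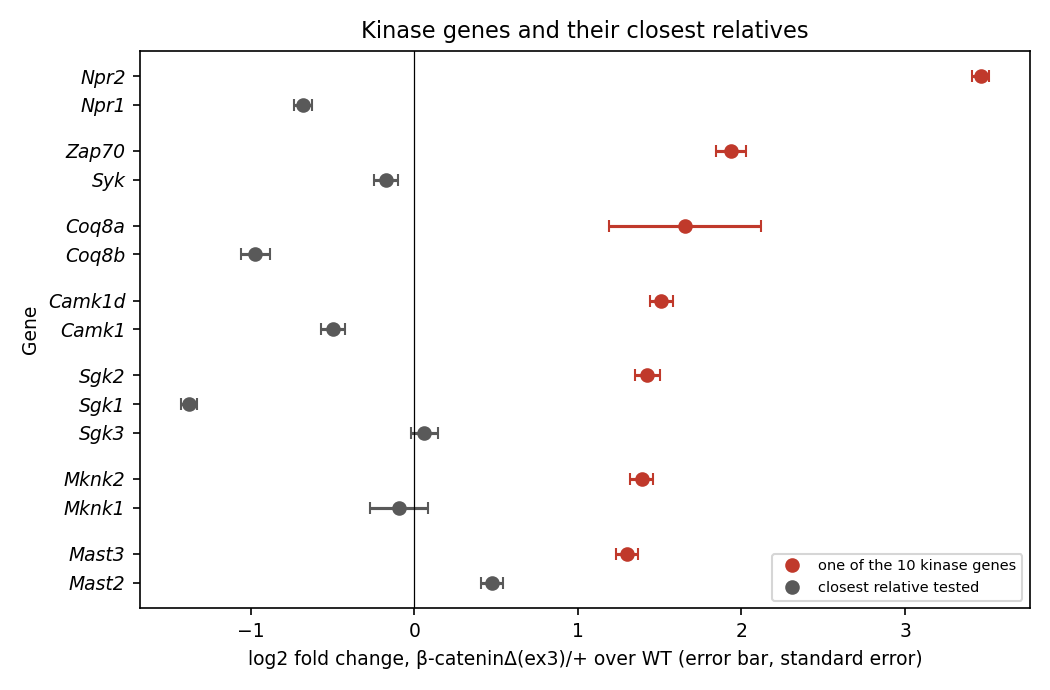
Log2 fold change (β-cateninΔ(ex3)/+ over WT) with its standard error for 7 of the selected kinase genes (red) and their closest tested relatives (grey). Npr1, Coq8b, Camk1 and Sgk1 lie left of 0 next to a member right of 1. Syk and Mknk1 lie at −0.17 and −0.09, Sgk3 at 0.06 and Mast2 at 0.48.

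Mknk2 was the second most abundant of the 10 genes. It encodes MNK2, which phosphorylates the cap-binding protein eIF4E when bound to its scaffold eIF4G, and lies at chr10:80665327-80676293 on the minus strand. Mknk2 had 13.1, 11.6 and 13.8 FPKM in WT and 35.3, 34.1 and 36.1 FPKM in β-cateninΔ(ex3)/+ livers, a 2.74-fold ratio and a log2 fold change of 1.39 ± 0.07 (SE). Its sister gene Mknk1 had 4.76, 2.67 and 4.53 against 3.67, 3.34 and 3.75 FPKM, with overlapping groups. Of 22 other genes of cap-dependent initiation tested, 2 were called higher and none lower, where 8.17% of all genes tested were called higher. Their median log2 fold change was 0.13, against 0.14 over all genes. Eif4ebp3, an inhibitor that binds eIF4E, went from 2.13, 3.79 and 3.94 to 16.9, 11.6 and 17.7 FPKM (log2 fold change 1.94 ± 0.23, limma adjusted p = 0.00072), and Eif4e3, an atypical member of the eIF4E family, rose by 1.32 ± 0.07 (limma adjusted p = 2.48e-05). The substrate gene Eif4e had 4.86, 4.88 and 1.17 FPKM in WT and 6.78, 1.84 and 6.55 FPKM in β-cateninΔ(ex3)/+ livers. One liver of each group lay far below the others, and no difference was detectable (limma adjusted p = 0.58).

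Map3k13 and Mapk15 belong to mitogen-activated protein kinase cascades. Map3k13 encodes LZK, a MAP kinase kinase kinase that activates JNK, and lies at chr16:21794346-21933439 on the plus strand. It had 1.62, 1.65 and 1.52 FPKM in WT and 8.62, 8.37 and 3.42 FPKM in β-cateninΔ(ex3)/+ livers. Replicate 3 of the latter was at 0.402 of the mean of the other 2, yet 2.14-fold above the WT mean. The ratio of means was 4.26 with that liver and 5.32 without it, and the log2 fold change 1.5 ± 0.31 (SE). The noncoding gene 1300002E11Rik overlaps it on the same strand, with 1.21 to 1.68 against 1.94 to 2.25 FPKM. Its relative Map3k12 was at 0.117 to 0.307 FPKM, below the filter. Of 23 other genes between MAP3K and JNK tested, 1 was called higher and none lower, where 8.17% of all genes tested were called higher. Their median log2 fold change was 0.26, against 0.14 over all genes. The called gene was Jund, a partner of JUN in the AP-1 factor, which rose by 1.70 ± 0.22 on the log2 scale (limma adjusted p = 0.0011). Map2k7, the JNK-activating kinase downstream, varied so much within both groups, from 0.995 to 6.96 FPKM in WT livers alone, that no difference was detectable (limma adjusted p = 0.84).

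Mapk15 encodes ERK8, an atypical MAP kinase linked to autophagy and cilia, and lies at chr15:75993769-75999154 on the plus strand. Its level was 0.634, 0.375 and 0.695 FPKM in WT and 3.68, 3.40 and 3.88 FPKM in β-cateninΔ(ex3)/+ livers, 6.43-fold higher by the means, with a log2 fold change of 1.57 ± 0.10 (SE). WT replicate 2 was the lowest liver. None of 10 other MAP kinases tested was called, and their median log2 fold change was −0.12, below the 0.14 of all genes. Mapk7, another MAP kinase gene, had 0.805 to 1.32 and 0.930 to 0.967 FPKM, with overlapping groups.

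Camk1d encodes a calmodulin-dependent kinase of the CaMKI family and lies at chr2:5293457-5714515 on the minus strand. It had 0.943, 1.14 and 0.867 FPKM in WT and 4.56, 4.50 and 4.86 FPKM in β-cateninΔ(ex3)/+ livers, a 4.72-fold ratio and a log2 fold change of 1.51 ± 0.07 (SE). Camk1, the founding member, went the other way, with 3.78, 3.95 and 4.43 FPKM in WT and 2.74, 2.38 and 2.60 FPKM in β-cateninΔ(ex3)/+ livers (log2 fold change −0.50 ± 0.07, limma adjusted p = 0.0018), under the fold threshold. Camk1d thus held 14.8 to 19.5% of the summed FPKM of the CaMKI genes in WT and 61.0 to 65.5% in β-cateninΔ(ex3)/+ livers. Its activating kinase gene Camkk2 had 0.864, 1.05 and 0.297 against 0.969, 0.881 and 0.913 FPKM, with overlapping groups. The 9 other genes of the cascade that were tested had a median log2 fold change of 0.17.

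Mast3 encodes a microtubule-associated kinase whose family phosphorylates the phosphatase inhibitors ENSA and ARPP-19, and lies at chr8:70778117-70805054 on the minus strand. It had 1.82, 1.94 and 1.62 FPKM in WT and 6.12, 5.94 and 5.58 FPKM in β-cateninΔ(ex3)/+ livers, a 3.28-fold ratio and, at 1.3 ± 0.07 (SE), the smallest log2 fold change of the 10 genes. Its relative Mast2 went the same way by less, from 1.59, 1.81 and 1.91 to 2.97, 2.92 and 2.66 FPKM (0.48 ± 0.07, limma adjusted p = 0.0018), and Mast1 and Mast4 had at most 0.164 FPKM. None of 7 other genes of this list was called. Ensa had 6.16 to 6.69 against 8.33 to 9.29 FPKM (0.41 ± 0.06, limma adjusted p = 0.0016), under the fold threshold.

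**Figure D5:**
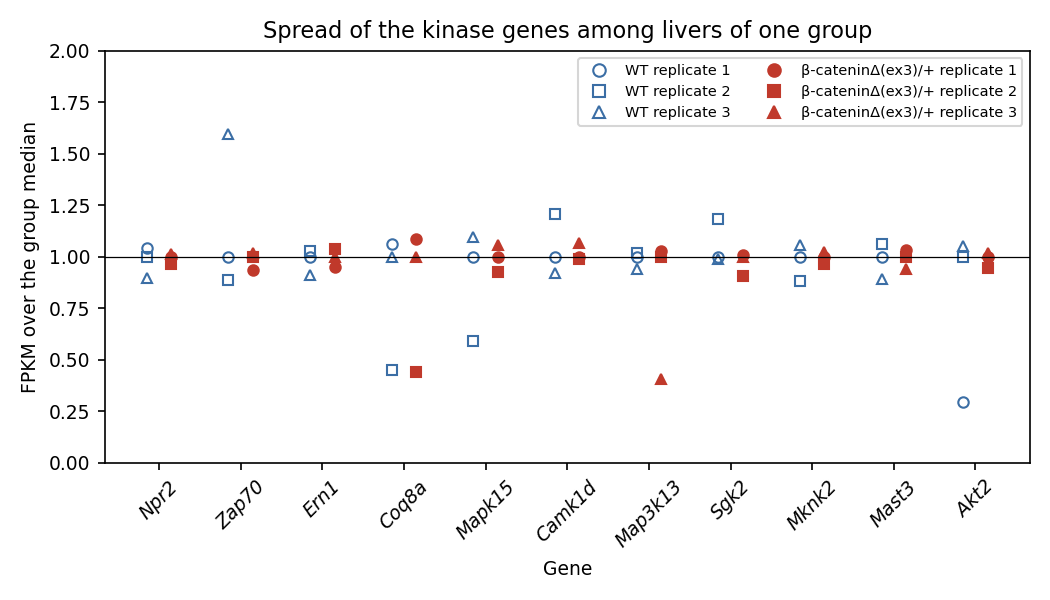
FPKM of each liver divided by the median of its group, for the 10 kinase genes and Akt2 (WT, open blue; β-cateninΔ(ex3)/+, filled red; 1 shape per replicate number). Replicate 2 is low for Coq8a in both groups, β-cateninΔ(ex3)/+ replicate 3 is low for Map3k13 and WT replicate 1 is low for Akt2, while Npr2, Ern1, Mknk2 and Mast3 are tight in both groups.

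The spread within a group was thus uneven among the 10 genes. Of 6919 genes with a mean of at least 3 FPKM, 4.83% differed by 2-fold or more between their highest and lowest WT liver and 4.32% between their highest and lowest β-cateninΔ(ex3)/+ liver. Coq8a did so in both groups and Map3k13 in the β-cateninΔ(ex3)/+ group. The low WT value of Akt2 was of the same kind.

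The genes with the most similar profiles were found by the mean absolute difference over the 6 livers of log2(FPKM + 1), each profile centred on its WT mean. For Npr2 they were Cyp27a1 and Ifi27, at 0.044 and 0.050. The mitochondrial sterol hydroxylase gene Cyp27a1 went from a mean of 20.3 to 237 FPKM. Nearest to Mast3 was Prkar2a, a regulatory subunit of protein kinase A, at 0.015, and nearest to Mknk2 were the glutamine transporter gene Slc1a5 at 0.022 and the cyclin gene Ccnd1 at 0.029. Slfn1 was among the genes nearest to Zap70, at 0.061, and Ern1 was closest to Gm43305 and Gbe1 at 0.030 and 0.032 and Mapk15 to 1110008P14Rik and C1qa at 0.036 each. Qsox1 was among the nearest genes of both Camk1d and Sgk2, at 0.036 and 0.029. Coq8a and Map3k13 had no gene as close, as Gm10774 and Arl8a stood at 0.16 and 0.11. Because the measure rewards a like difference between the groups, any 2 genes with a similar fold change come out near each other.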

How the data were processed

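The authors trimmed reads with cutadapt 1.9, aligned them with HISAT2 2.0.4 and assembled and quantified transcripts with StringTie 1.3.4d, per the submitters' processing notes and the study's methods, and deposited 1 table of FPKM per gene for 31950 genes in 3 WT and 3 β-cateninΔ(ex3)/+ livers. Coordinates are the table's; 27742 genes have the start and end of GENCODE M21 (GRCm38). The 10 genes, the kinase list and the pathway and marker lists were chosen with earlier results of these data known. The 13243 genes whose FPKM averaged 0.5 or more were tested with limma 3.58.1 in R 4.3.3 on log2(FPKM + 1) with a trended prior, Benjamini-Hochberg adjustment over all of them and a log2 fold change of at least 1. DESeq2 and edgeR, named in the authors' notes, were not run because FPKM are not counts. On simulated data with 200 changed genes of 13243, the fit recovered 91.5% and called 0% of unchanged genes. Error rates in the livers, where 1680 of 13243 genes were called, were not tested. Fragment depth was estimated from the steps between low FPKM of 6195 single-exon genes, where 29.3 to 38.1% of low values lay on a step against 4% by chance, so it is approximate and no count test was run. Named genes were, by rule, the 10 genes and Akt2, their closest relatives and direct partners, called genes of each list (at most 6 by size; further ones of the unfolded protein response were named after their values were seen), the 5 other kinases with the largest increase, kinases at the edge of the selection rule, nearest profiles, T and NK cell markers, Glul, Axin2 and sex-linked genes. Some genes that this rule names are not reported here. Promoter windows came from RefSeq (GRCm38.p6). Alternatives were other pseudocounts, filters, scalings, variance priors, thresholds, a replicate block and leaving out each liver.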

Additional observations from a re-analysis of the deposited data

How the results depend on the processing

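The 10 kinase genes were higher in every β-cateninΔ(ex3)/+ liver after either scaling; filters and leaving out a liver cannot change that order. Their lowest log2 fold change under any alternative was 1.09. Because the 10 genes were selected on this contrast, passing both thresholds is no test of them. Only 9 of the 10 did so without WT replicate 2, and likewise without β-cateninΔ(ex3)/+ replicate 1 or 3. With all livers, 8.17% of all genes tested were called higher. Their median log2 fold change of 1.54 became 1.98 with a pseudocount of 0.1, 1.42 with median-ratio scaling and 1.40 with quantile normalization. A pseudocount of 0.1 gave 2705 called genes (against 1680), 59 kinases (against 31) and 37 pathway genes (against 21), and a log2 threshold of 1.5 gave 759 genes and 9 kinases. Kinases higher in every β-cateninΔ(ex3)/+ liver numbered 119 and 108 after the scalings, 166 without a filter and 127 at a mean FPKM of at least 1 (against 150). Over all genes tested, deviations of same-numbered livers were hardly correlated (0.027, 0.021 and −0.0054), a measure that cannot decide on pairing for single genes such as Coq8a. With the replicate block 1673 genes, 31 kinases and 20 pathway genes were called. Small differences changed sign for Sgk3 (−0.0029 and −0.019 after the scalings, −0.0030 to 0.10 with each liver left out), Pdpk1 (−0.052 and −0.046 after the scalings) and, with each liver left out, Mknk1 (−0.30 to 0.026), Camkk2 (−0.025 to 0.30), Eif4e (−0.092 to 0.86) and Map2k7 (−0.27 to 0.73; −0.26 without β-cateninΔ(ex3)/+ replicate 1). Ndrg1 lost its call without β-cateninΔ(ex3)/+ replicate 3 (−0.99). Akt2 gained a call without WT replicate 3 (1.37). Coq8a without replicate 2 of both groups was chosen after seeing the data. The causes were not tested. With 3 livers per group and approximate depth, differences near the filter are imprecise.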
